A study of Cricetulus griseus with 8 samples.

Results

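The 13 messenger RNAs described here are those that the mitochondrial genome encodes, measured in Chinese hamster ovary (CHO) cells. They were found as a block of identifiers: the 37 transcripts with the lowest Ensembl numbers form 1 consecutive run, and 13 of these 37 carry a length in the deposited tables. The tables list 34490 transcripts in all, of which 26985 have a length. The rule used identifiers and lengths and no measured value, though earlier results of these data were known when the members were chosen. Gene names do not occur in the files, so each of the 13 was checked by its place and its length. All 37 places matched the vertebrate gene order from tRNA-Phe to tRNA-Pro: the 13 with a length stood at the 13 places of protein genes, and the 24 without one at the places of 2 rRNAs and 22 tRNAs. Ranked by listed length, the 13 had the same order as the textbook lengths of the mouse proteins, from ND5 as the longest to ATP8 as the shortest. The first protein gene of the block, ND1, is ENSCGRT00000000006 with a listed length of 308, and the last, CYTB, is ENSCGRT00000000035 with 371. Between them lie COX1 (ENSCGRT00000000016, 505), ND4L (ENSCGRT00000000027, 89), ND4 (ENSCGRT00000000028, 449), ND5 (ENSCGRT00000000032, 597) and ND6 (ENSCGRT00000000033, 165), on which the results turn most, and ATP8 (ENSCGRT00000000021) is the shortest at 58. The listed lengths were 7 to 11 below the mouse protein lengths, and 11 of the 13 were within 1 of the median shortfall of 9. The vertebrate gene names are therefore used for the 13, as assignments from order and length. The rRNA and tRNA identifiers held 0 counts in all 8 libraries, as did all 7505 identifiers without a length, so they were not measured.

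The 13 proteins are core subunits of the respiratory chain and of ATP synthase in the inner mitochondrial membrane. ND1, ND2, ND3, ND4, ND4L, ND5 and ND6 belong to complex I (NADH dehydrogenase), CYTB to complex III (the cytochrome bc1 complex), COX1, COX2 and COX3 to complex IV (cytochrome c oxidase), and ATP6 and ATP8 to complex V (ATP synthase). Their mRNAs are transcribed inside the organelle as long precursors, cut out between the tRNAs, and translated there by mitochondrial ribosomes, which differ from those of the cytosol. ND6 is encoded on the light strand and the others on the heavy strand. ATP8 and ATP6 share 1 mRNA with overlapping reading frames, and so do ND4L and ND4.

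The study compared CHO cells that expressed RNG140-GFP with control CHO cells labelled wild type. CHO is an established hamster cell line, and RNG140 (caprin2) binds RNA and is found in RNA granules of the cytoplasm; here it was fused to green fluorescent protein. Each population gave 2 libraries of mRNA and 2 libraries of ribosome footprints, the RNA fragments that ribosomes shield from RNase I. The 8 libraries make 4 groups of 2. The labels used here do not give the promoter, the length of expression, or whether the cells were 1 clone, and nothing says that libraries came from separate cultures, so p-values measure the spread between these libraries, which may be technical. With no gene names, markers of the cell line, the RNG140 mRNA and the nuclear genes of the respiratory chain and of mitochondrial gene expression were not analysed here.

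Libraries held between 4908885 and 35875108 counts. The 13 mRNAs held between 276285 and 473893 counts in an RNA library but only between 958 and 2038 in a footprint library, and single members had as few as 7 footprint counts. Values are CPM, counts scaled to a common library size, after TMM normalization, which sets the bulk of transcripts equal between libraries. All 13 passed the expression filter in both assays and were among the 15577 transcripts tested. The second RNG140-GFP footprint library stood apart from the first: all 13 mRNAs were lower in it, by a median of 0.61 on the log2 scale, whereas the median over all tested transcripts was 0.0071 higher and the 5th percentile was -0.33. In control footprints 10 of the 13 were lower in the second library, with a median difference of -0.22. In RNA the corresponding medians were 0.012 and 0.052. Footprint results are therefore given with and without single footprint libraries.

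Mitochondrial mRNAs were abundant in RNA and made up a far smaller share of footprints. In control cells their summed level was 12386 ± 469 CPM in RNA and 251 ± 27.6 CPM in footprints (SD, n = 2). In RNG140-GFP cells it was 10064 ± 531 CPM in RNA and 139 ± 36.4 CPM in footprints. As a share of all counts, RNA exceeded footprints 64.5-fold in control and 91.1-fold in RNG140-GFP cells. Footprints relative to RNA were lower than in the bulk of transcripts for 13 of 13 in both populations (edgeR quasi-likelihood test, adjusted p under 0.05). Over all tested transcripts the same call was made for 39.5% in control and 40.3% in RNG140-GFP cells. The members differed from that background in size: their median difference was -4.48 on the log2 scale in controls and -5.13 in RNG140-GFP cells, against -0.043 and -0.015 over all tested transcripts. The 2 assays were prepared differently, and cytosolic and mitochondrial ribosomes were not separated in these counts, so translation and recovery of footprints cannot be told apart in this contrast.

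**Figure D1:**
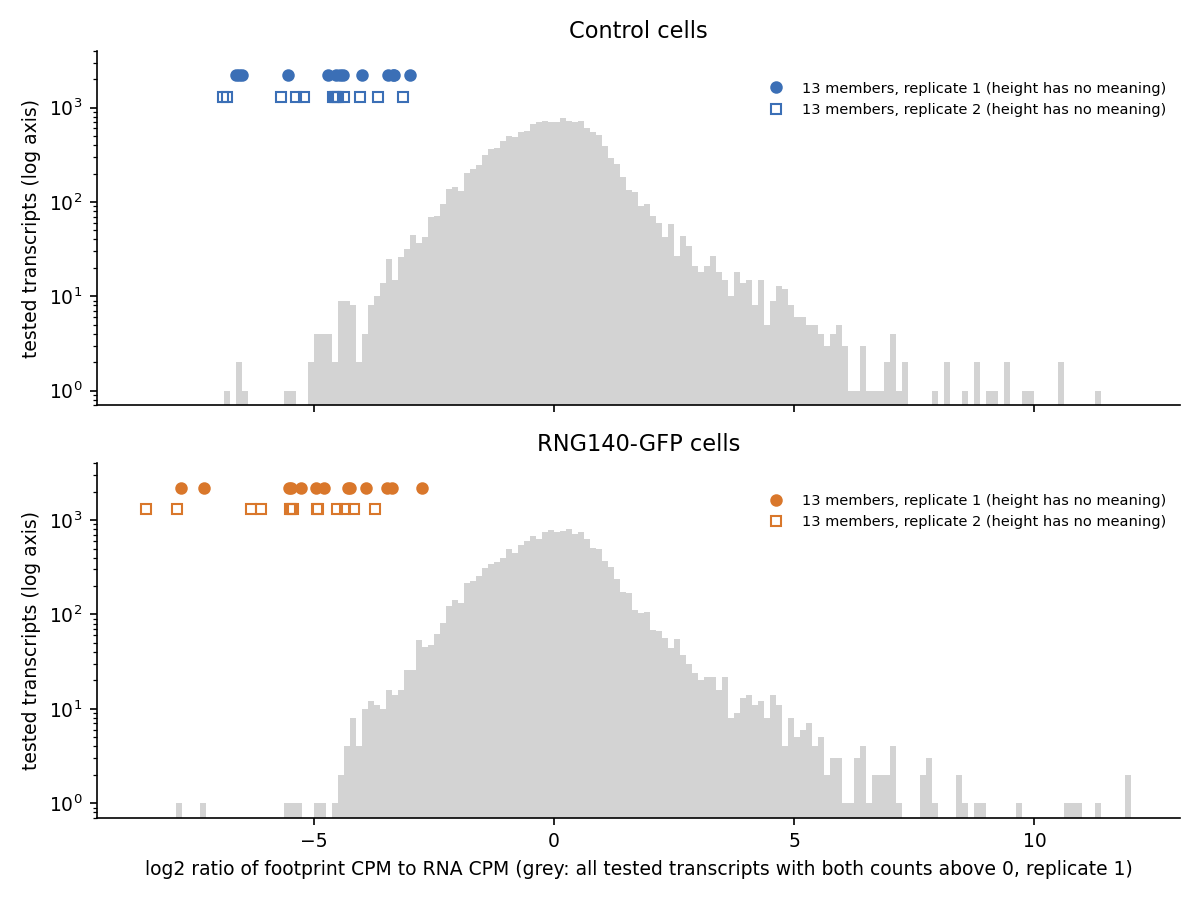
Footprint-to-RNA ratio of CPM values on a log2 scale (x axis) for all tested transcripts (grey bars, number of transcripts on a log axis, replicate 1) and for the 13 mitochondrial mRNAs (points, replicates 1 and 2). In both populations the 13 points lie in the far left tail, in the lowest 1.46% of tested transcripts or below.

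The footprint-to-RNA ratio of CPM values, taken between libraries of the same number, placed every member in the lowest 1.3% of the 15577 tested transcripts in the first control pair and in the lowest 1.27% in the second. ND4, a proton-pumping subunit of complex I, had the lowest or next to lowest ratio of the 13 in every pair. Its ratio was 0.0102 and 0.00889 in control cells and 0.00459 and 0.0028 in RNG140-GFP cells. COX1, the catalytic subunit of complex IV, was close to it, at 0.0106 and 0.00849 in control cells and 0.0064 and 0.00437 in RNG140-GFP cells. For both genes the RNG140-GFP ratios were below the control ratios without overlap. At the other end, ND5 had ratios of 0.0981 and 0.113 in control cells, and ND6 of 0.125 and 0.0484. Even these were far below the median of all tested transcripts, which was 0.97 in both control pairs. In the first control pair 169 other transcripts with footprints had a ratio below that of ND6, the highest of the 13, and 20 tested transcripts had no footprint at all. In RNG140-GFP cells no other transcript with footprints fell below ND4, and 2 to 7 had none.

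RNA levels of the 13 spanned a wide range, also among the heavy-strand genes, which share precursors. Levels between genes are compared per 100 units of listed length. COX1 RNA was the highest in control cells, at 1306 CPM per 100 units of length. ND6, the light-strand gene, was the lowest, at 21.3, a span of 61.4-fold. Among the heavy-strand genes ND2 was the lowest, at 36.6. After COX1 came COX3, COX2, ND4, CYTB, ATP6, ND3, ND1, ATP8, ND4L, ND5 and ND2, and of these neighbours only ND1 and ATP8 overlapped between libraries. In RNG140-GFP cells COX1 was again the highest, at 974, and ND6 the lowest, at 7.13, and the span was 137-fold. The lowest heavy-strand gene there was again ND2, at 24.4. The first 6 places were taken by the same genes in the same order in both populations.

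**Figure D2:**
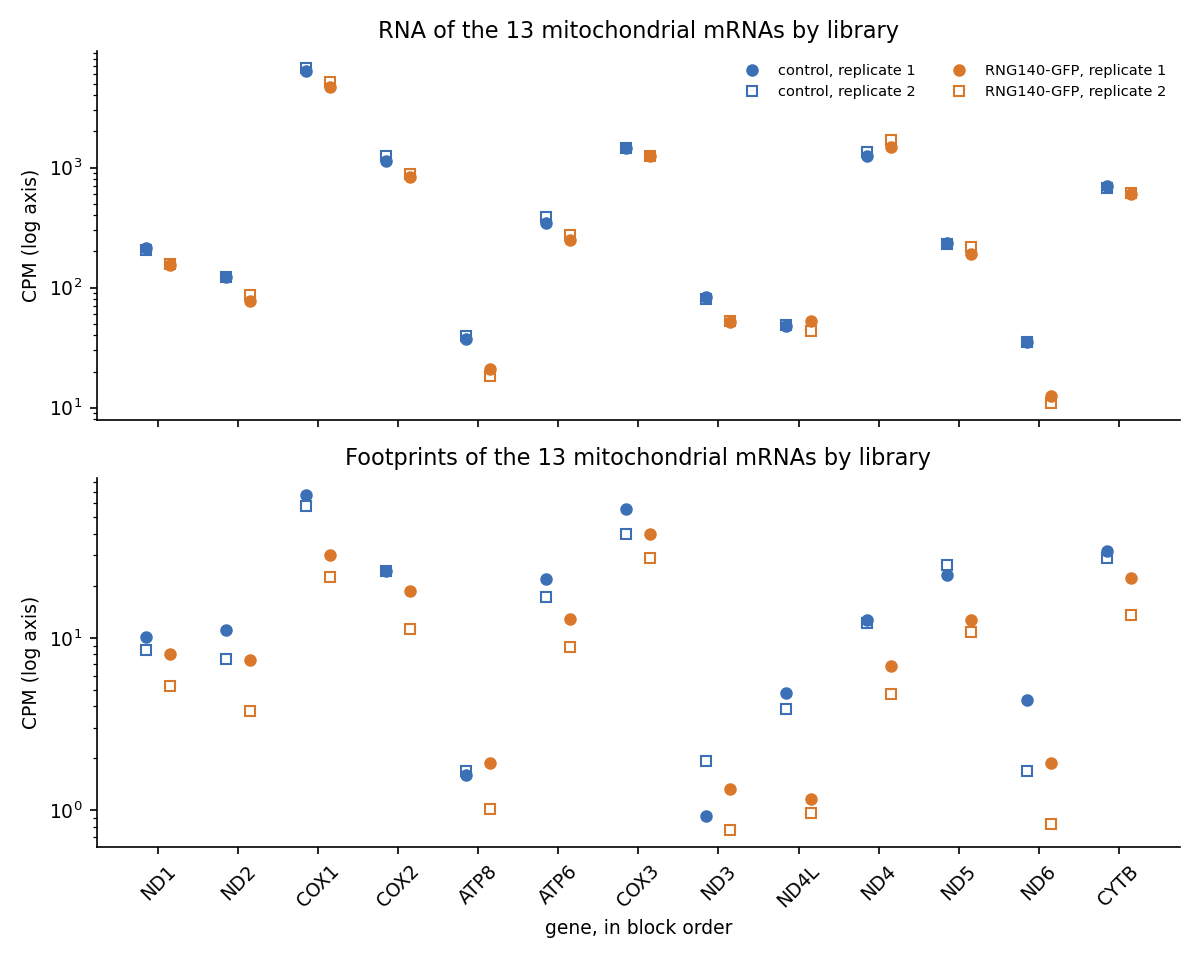
RNA and footprint levels of the 13 mRNAs in CPM (log axes) in each of the 8 libraries, in block order. RNG140-GFP points lie below control points for most genes and ND4 RNA lies above, from 1250 and 1361 CPM to 1493 and 1693 CPM. Between the 2 RNG140-GFP footprint libraries the median log2 difference of the 13 is -0.61, against 0.012 in control RNA and 0.052 in RNG140-GFP RNA.

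Footprints were spread more evenly over the members than RNA. Per 100 units of listed length, control footprints ranged from 19.1 CPM for COX3 to 1.35 CPM for ND3, a span of 14.1-fold. The subunits of complex IV led in both assays, and COX3 and not COX1 was the highest in footprints. RNG140-GFP footprints ranged from 13.8 CPM for COX3 to 0.818 CPM for ND6, per 100 units of length. Of the 12 pairs of neighbours in this order, 6 overlapped in control and 10 in RNG140-GFP footprints, so the middle of the footprint order is not resolved. The Spearman correlation of RNA and footprint levels per length across the 13 genes was 0.65 in control and 0.7 in RNG140-GFP cells. It describes 13 genes that share libraries and are not independent. Adding 10 to each listed length, close to the shortfall against mouse proteins, left the RNA span in controls at 63.9-fold and the footprint span at 14.9-fold.

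**Figure D3:**
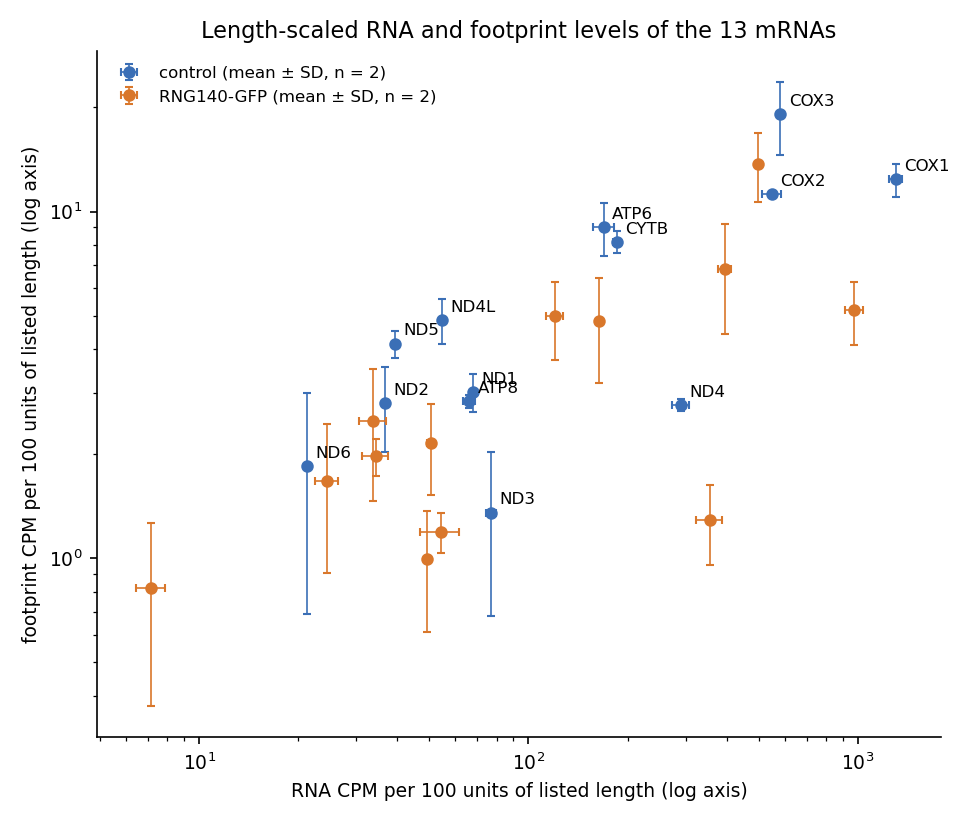
Footprint level against RNA level of the 13 mRNAs, both in CPM per 100 units of listed length on log axes (mean ± SD, n = 2); control points carry gene names. ND4 and ND3 lie below genes of similar RNA level, and COX1 has more RNA than COX3 but fewer footprints (12.4 against 19.1 in controls).

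Genes on a shared mRNA did not have equal levels. Per 100 units of length, control RNA was 291 CPM for ND4 and 54.5 CPM for ND4L, 5.34 times apart. Control footprints had the opposite order, with 2.77 CPM for ND4 and 4.86 CPM for ND4L. In RNG140-GFP cells ND4 RNA was 6.55 times that of ND4L per length. Footprints there overlapped, with 1.53 and 1.05 CPM for ND4 and 1.3 and 1.08 CPM for ND4L. Their order was thus not resolved, and ND4L rested on 13 and 15 counts. ATP6 RNA was 2.56 times that of ATP8 per length in control and 3.57 times in RNG140-GFP cells, and ATP6 footprints were 3.18 times and 2.01 times those of ATP8. How reads in the overlaps between such genes were counted is not given in the sources used here. The values of ATP8, ATP6, ND4L and ND4 carry this uncertainty. The strand on which reads were counted is not stated either, which bears on ND6 as the light-strand gene.

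RNA of mitochondrial genes was then compared between the populations. RNA fell for 10 of the 13 in RNG140-GFP cells, rose for ND4 and was not called for CYTB and ND4L (edgeR, adjusted p under 0.05). Among all tested transcripts 30.3% were called lower and 31% higher. The median change of the 13 was -0.43 on the log2 scale, against 0.0054 over all tested transcripts, and the summed RNA level in RNG140-GFP cells was 0.813 of that in controls. In 11 of the 13 both RNG140-GFP values lay below both control values, which holds for 39.9% of all tested transcripts, and in ND4 both lay above, which holds for 40.5%. In bulk libraries fewer cells that hold these mRNAs and less RNA per cell cannot be told apart.

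ND6, the light-strand subunit of complex I, fell most. Its RNA was 35.2 and 35 CPM in control cells and 12.6 and 10.9 CPM in RNG140-GFP cells, with groups far apart. The fall was 2.97-fold (log2 change -1.57 ± 0.11 SE, edgeR adjusted p = 7.9e-13) and rested on 1384 and 1194 counts against 406 and 289. ATP8, the small accessory subunit of ATP synthase, followed. It went from 37.2 and 39.5 CPM to 20.8 and 18.3 CPM, a 1.95-fold fall (-0.97 ± 0.088 SE, edgeR adjusted p = 2.15e-10). ND3 RNA fell 1.57-fold, from 83.5 and 79.6 CPM to 51.6 and 52.4 CPM, and ND2 RNA fell 1.5-fold, from 122 and 123 CPM to 76.9 and 86 CPM. ND3 and ND2 are membrane-arm subunits of complex I.

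The 3 subunits of complex IV fell by 1.17-fold to 1.39-fold. COX1 RNA went from 6380 and 6814 CPM to 4698 and 5137 CPM, a 1.34-fold fall (-0.42 ± 0.072 SE, edgeR adjusted p = 1.16e-05). COX2, which holds the first copper site for electrons from cytochrome c, went from 1141 and 1255 CPM to 832 and 885 CPM. COX3, the remaining core subunit of complex IV, went from 1460 and 1463 CPM to 1247 and 1254 CPM, a log2 change of -0.23 ± 0.081 (SE). The groups of all 3 did not overlap, but the COX3 call was lost when any 1 RNA library was left out, with adjusted p between 0.0672 and 0.0871 (edgeR). ND1, which lies near the quinone site of complex I, and ATP6, the proton-channel subunit of ATP synthase, fell 1.35-fold and 1.41-fold. ND5 fell by 0.2 ± 0.063 (SE), and its call was lost without the first control RNA library (edgeR adjusted p = 0.0886) or without the first RNG140-GFP RNA library (0.276, log2 change -0.093). CYTB had 700 and 674 CPM in control and 608 and 609 CPM in RNG140-GFP cells, with a log2 change of -0.17 ± 0.078 (SE, edgeR adjusted p = 0.0539). Its RNA was near the threshold. It was called lower with a replicate block (edgeR adjusted p = 0.0161) and without a filter on low counts (0.015).

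ND4 differed in direction from the other genes that were called. Its RNA rose from 1250 and 1361 CPM to 1493 and 1693 CPM, 1.22-fold (0.29 ± 0.069 SE, edgeR adjusted p = 0.000701), and the groups did not overlap. Its partner ND4L had 48 and 48.9 CPM in control and 52.9 and 43.5 CPM in RNG140-GFP RNA, and these overlapped (edgeR adjusted p = 0.968). The direction for ND4L turned with the scaling, from -0.004 here to 0.0038 with other size factors. DESeq2 called 7 of the 13 lower in RNA and none higher, also at an unadjusted p under 0.05, against 24.9% lower and 25.5% higher over all tested transcripts. It gave the same size for ND4, 0.29, with an adjusted p of 0.124, and ND2 (adjusted p = 0.138), COX2 (0.105) and COX3 (0.439) were not called in DESeq2 either.

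**Figure D4:**
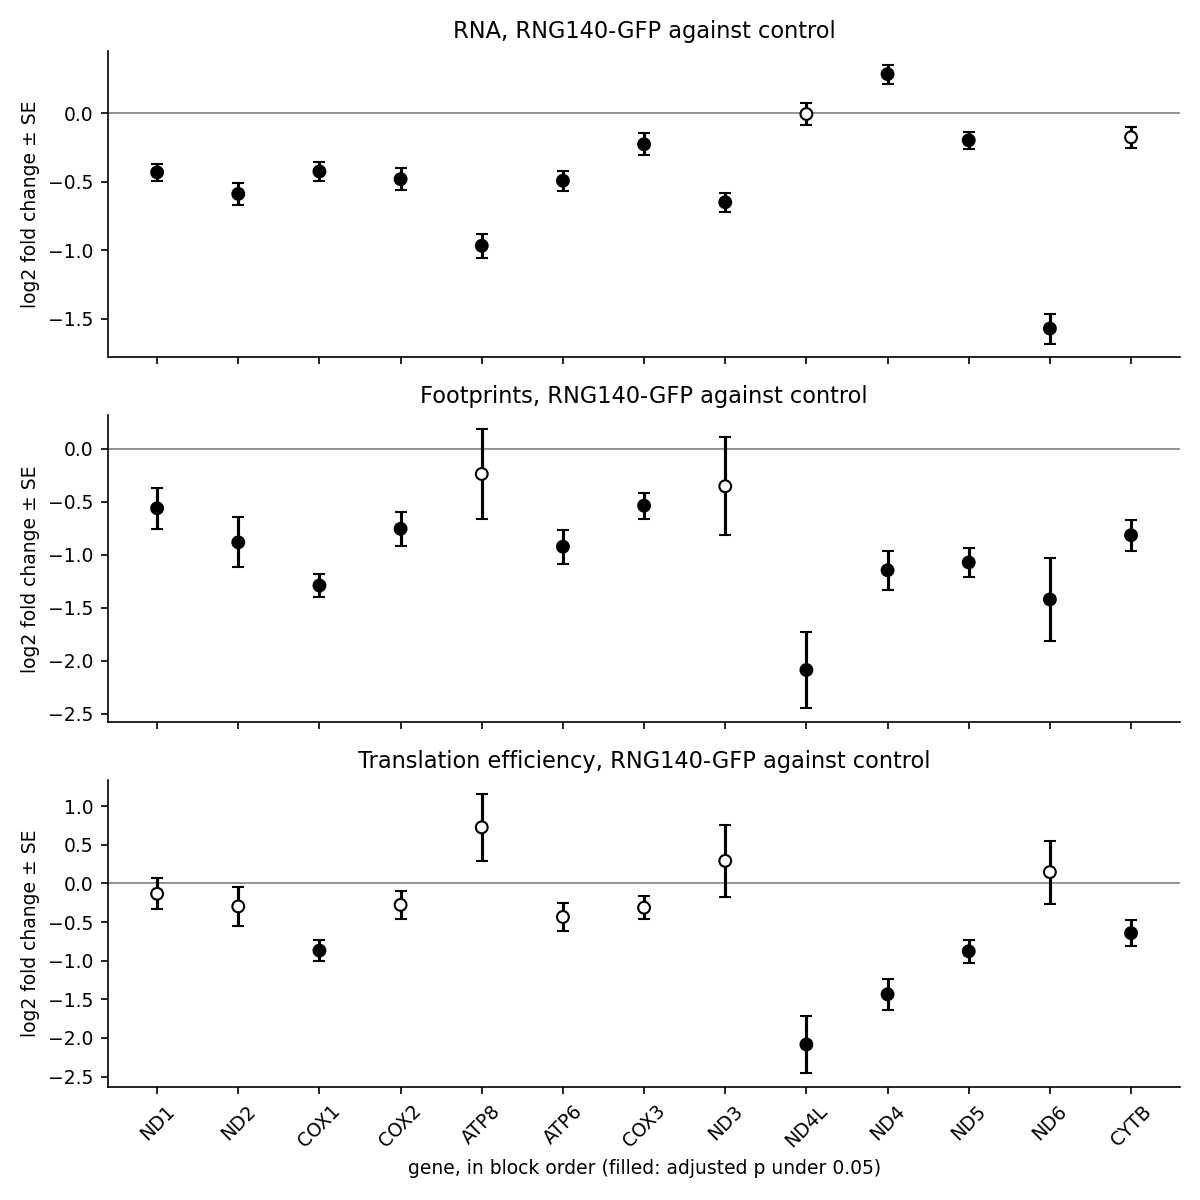
Log2 fold change in RNG140-GFP against control cells with its standard error for RNA, footprints and translation efficiency (footprints relative to RNA) of the 13 mRNAs, in block order; filled points had an adjusted p under 0.05 in edgeR. RNA changes lie between -1.57 for ND6 and 0.29 for ND4, footprint changes are below 0 for all 13, and translation efficiency is lowest for ND4L at -2.09.

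Footprints fell on most mitochondrial mRNAs. They fell for 11 of the 13 in RNG140-GFP cells and rose for none, at an unadjusted p under 0.05 either, against 26.4% called lower and 25.9% called higher among all tested transcripts (edgeR, adjusted p under 0.05). The median change of the 13 was -0.88 on the log2 scale, against 0.024 over all tested transcripts. The summed footprint level in RNG140-GFP cells was 0.553 of that in controls. In 9 of the 13 both RNG140-GFP values lay below both control values, which holds for 36.2% of all tested transcripts. The size of the fall depended on which footprint libraries were kept: without the second RNG140-GFP footprint library the median was -0.47. It was -0.73 without the first control footprint library and -1.18 without the first RNG140-GFP one. DESeq2 called 9 of the 13 lower in footprints, against 25.1% of all tested transcripts, without ND2 and COX3.

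COX1 footprints were 67.5 and 57.8 CPM in control and 30.1 and 22.4 CPM in RNG140-GFP cells. This was a 2.45-fold fall (-1.29 ± 0.11 SE, edgeR adjusted p = 6.51e-11), larger than the 1.34-fold fall of its RNA. ND4 footprints fell 2.22-fold, from 12.8 and 12.1 CPM to 6.85 and 4.73 CPM, while its RNA rose. ND5, the largest complex I subunit of the 13, went from 23.3 and 26.4 CPM to 12.7 and 10.7 CPM, a 2.11-fold fall (edgeR adjusted p = 1.43e-07). The groups of these 3 did not overlap. ND4L footprints fell most by ratio, 4.26-fold, from 4.78 and 3.87 CPM to 1.16 and 0.959 CPM, and rested on few counts, 36 and 16 in controls against 13 and 15. CYTB, the heme-bearing subunit of complex III, fell 1.76-fold, from 31.9 and 28.8 CPM to 22.2 and 13.6 CPM. Its log2 change of -0.82 became -0.47 without the second RNG140-GFP footprint library and was still called (edgeR adjusted p = 0.00447).

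Among the remaining footprint changes, those of ATP6 and COX2 were firmer than the others. ATP6 fell 1.9-fold, from 21.9 and 17.2 CPM to 12.8 and 8.89 CPM, and COX2 fell 1.69-fold, from 24.5 and 24.4 CPM to 18.6 and 11.2 CPM, both without overlap. The log2 change of COX2 went from -0.76 to -0.39 without the second RNG140-GFP footprint library and was still called (edgeR adjusted p = 0.0272). ND1, ND2, COX3 and ND6 were called lower, with log2 changes between -1.42 and -0.54, and none of these 4 kept its call without the second RNG140-GFP footprint library (edgeR adjusted p between 0.0552 and 0.347) or without the first control one (0.271 to 0.652). Without the second RNG140-GFP footprint library their log2 changes lay between -0.86 for ND6 and -0.24 for ND1, and without the first control one those of ND2, COX3 and ND6 were -0.497, -0.23 and -0.42. Without the first RNG140-GFP footprint library ND1 and ND2 changed by -0.85 and -1.38. COX3 and ND6 overlapped between groups. ATP8 had 12 and 7 footprint counts in controls against 21 and 16, and ND3 had 7 and 8 against 15 and 12. With log2 changes of -0.24 ± 0.42 and -0.36 ± 0.46 (SE), neither was called, and a difference was not detectable at this depth.

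Translation efficiency, the change in footprints less the change in RNA, fell for 5 of the 13 and rose for none (edgeR interaction contrast, adjusted p under 0.05). At an unadjusted p under 0.05 it was lower for 7 and higher for 0, a threshold not counted over all tested transcripts. At the adjusted threshold 12% of all tested transcripts were called lower and 11.2% higher. The 5 were ND4L, ND4, ND5, COX1 and CYTB. ND4L changed by -2.09 ± 0.37 (SE, edgeR adjusted p = 9.97e-05), with a footprint-to-RNA ratio that went from 0.0996 and 0.0791 to 0.0219 and 0.0221. ND4 changed by -1.44 ± 0.2 (SE, edgeR adjusted p = 6.86e-06). Both genes of this shared mRNA thus had fewer footprints per RNA, by 4.24-fold and 2.7-fold. ND5 changed by -0.88 ± 0.15 and COX1 by -0.87 ± 0.13 (SE), and CYTB by -0.64 ± 0.16 (SE, edgeR adjusted p = 0.00513). In 5 of the 13 both RNG140-GFP ratios lay below both control ratios, and in 1, ATP8, both lay above, against 30.2% below and 31.1% above over all tested transcripts.

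The 4 calls for ND4L, ND4, ND5 and COX1 held in DESeq2, where 10.4% of all tested transcripts were called lower, and CYTB had an adjusted p of 0.222. CYTB also lost its call without the second RNG140-GFP footprint library (log2 change -0.29, edgeR adjusted p = 0.167) and without the first control one (0.0984), and without the first RNG140-GFP one its change was -0.996. The median change over the 13 was -0.31. It was -0.69 without the first RNG140-GFP footprint library and -0.081 without the second, the extremes as single libraries were left out. ATP8 at 0.73 ± 0.43, ND3 at 0.29 ± 0.47 and ND6 at 0.15 ± 0.41 (SE) lay above 0 and were not called.

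By complex, RNA was called lower for 5 of 7 subunits of complex I, 3 of 3 of complex IV and 2 of 2 of complex V, and 0 of 1 of complex III, where 30.3% of all tested transcripts were called lower. Footprints were called lower for 6 of 7, 3 of 3, 1 of 2 and 1 of 1 in the same order of complexes I, IV, V and III, against 26.4% of all tested transcripts. Translation efficiency was called lower for 3 of 7 in complex I, 1 of 3 in complex IV, 0 of 2 in complex V and 1 of 1 in complex III, against 12% of all tested transcripts. Each complex with more than 1 member held both called and uncalled genes in at least 1 of the 3 comparisons.

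ND4 took a larger share of the mitochondrial RNA in RNG140-GFP libraries. COX1 took 52.9% and 53.6% of the RNA counts on the 13 genes in control libraries and 48.5% and 49.2% in RNG140-GFP libraries. ND4 took 10.4% and 10.7% in control and 15.4% and 16.2% in RNG140-GFP libraries. The other complex I subunits had small shares, so that complex I as a whole went from 16.5% and 16.4% to 21% and 21.7%, and complex IV from 74.5% and 74.9% to 70% and 69.7%. Shares of RNA lay apart between populations for 12 of the 13, with 8 lower and 4 higher (ND4, ND4L, ND5 and CYTB) in RNG140-GFP cells. In CPM, 39.9% of all tested transcripts lay apart below and 40.5% above, which is another measure than shares within the 13. The 13 shares make up a whole, so a share can rise without a rise in RNA. Of these 4, ND4 RNA was called higher, ND5 RNA was called lower, and ND4L and CYTB were not called (edgeR). The 4 with a higher share are neighbours in the last part of the block, and between them lies ND6, whose share fell from 0.292% and 0.275% to 0.13% and 0.105%.

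**Figure D5:**
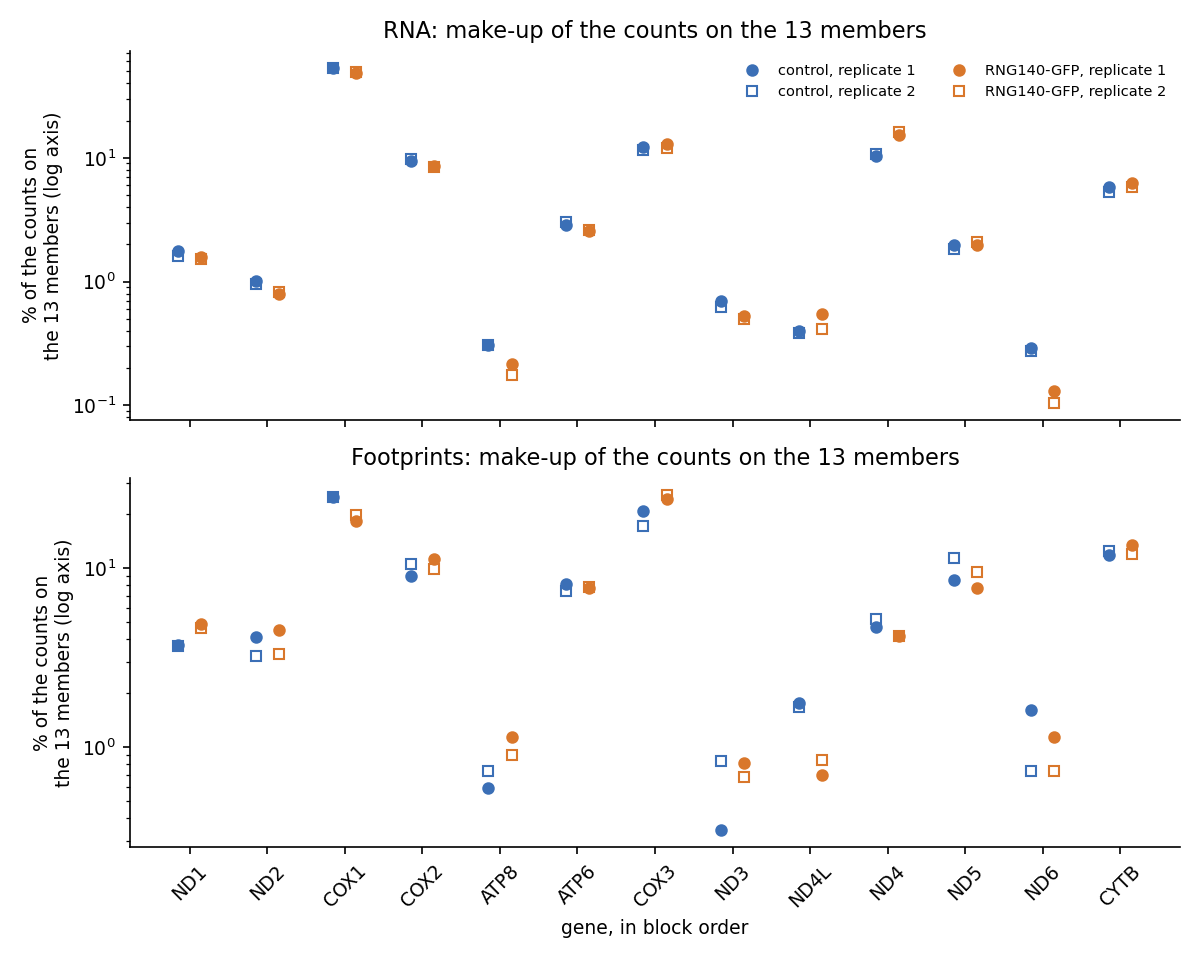
Percent of the counts on the 13 mitochondrial mRNAs that each gene took, on log axes, in each of the 8 libraries. The ND4 share of RNA is higher in both RNG140-GFP libraries, the ND6 share of RNA is lower in both, and in footprints COX3 replaces COX1 as the gene with the highest share.

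In footprints COX1 took 24.9% in both control libraries and 18.3% and 19.8% in RNG140-GFP libraries, while COX3 took 20.7% and 17.2% in control and 24.2% and 25.7% in RNG140-GFP libraries. ND4L fell from 1.77% and 1.67% to 0.702% and 0.847%. Shares of footprints overlapped between populations for 7 of the 13, and 3 were lower and 3 higher in RNG140-GFP cells. In CPM, both RNG140-GFP footprint values lay below both control values for 36.2% of all tested transcripts. That is another measure than shares within the 13 and no like background for them. The numbers of lower and higher shares are therefore given as a description only.

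Whether single genes changed differently from the rest of the block was tested next. Each library was scaled on the median ratio of the 13 mRNAs, and all 15577 transcripts were fitted again. On this scale the median log2 change over all tested transcripts was 0.45 in RNA, 0.86 in footprints and 0.4 in translation efficiency. This upward shift by itself makes calls of lower rarer among all tested transcripts. ND6 RNA was lower relative to the block by 1.13 ± 0.31 (SE) on the log2 scale (edgeR adjusted p = 0.00548), where 1.12% of all tested transcripts were called lower. ND4 RNA was higher relative to the block by 0.73 ± 0.3 (SE) and not called (edgeR adjusted p = 0.0617), where 19.8% of all tested transcripts were called higher. ND4L footprints were lower by 1.25 ± 0.49 (SE, edgeR adjusted p = 0.0209), where 0.603% of all tested transcripts were called lower. In translation efficiency none of the 13 was called relative to the block in edgeR (ND4L at -1.69 ± 0.58 SE, adjusted p = 0.256), where 0.0128% of all tested transcripts were called lower, and at an unadjusted p under 0.05 there were ND4L and ND4. Standard errors on this scale were larger than on the first, at 0.3 against 0.069 for ND4 RNA. For translation efficiency only 16 transcripts were called higher and 2 lower of all 15577. A missing call on this scale therefore cannot show that a gene moved with the block.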

How the data were processed

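Per the file contents, the authors deposited for each library a headerless list of transcripts, each with a length and an unnormalized read count. The submitters' processing notes name 3 tools without saying what each did (CASAVA 1.8; Bowtie2 2.1.0; TopHat2 2.0.9). How reads were counted, on which build, annotation and strand, is not stated in the labels used here. The deposited length column has another unit than bases, which no source states, and serves here as a listed length. No reference sequence of these genes was used, so none is printed.

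Differential counts were computed in R 4.3.3 with edgeR 4.0.16, by its quasi-likelihood F-test after TMM scaling. Transcripts needed a minimum count of 10 in each assay by edgeR's filter, and p-values were adjusted (Benjamini-Hochberg, threshold 0.05) over all 15577 that passed, which held at least 99.38% of each library. One model took the 8 libraries as 4 group means, leaving 4 residual degrees of freedom. Wald standard errors were kept at or above counting error. The fit was tested on simulated data. Groups and replicate numbers came from the titles. Some reads appear to count on several transcripts: 3695 transcripts, but 0 of the 13, had the counts of another in every library. All 13 members are named. The members and lists were chosen with earlier results of these data known, and the scaling on the 13 members after the data were seen. Alternatives were DESeq2 1.42.0, other size factors, scaling without the block, identical transcripts once, other filters, a threshold of 0.01, a replicate block and leaving out each library.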

Additional observations from a re-analysis of the deposited data

How the results depend on the processing

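Footprints relative to RNA were called lower in both populations for every member tested under all alternatives run. A minimum count of 50 removed ATP8, ND3, ND4L and ND6 from the test. The count of members with higher RNA went from 1 to 0 in DESeq2; the cause was not tested. With single libraries left out, between 8 and 11 members were called lower in RNA, between 7 and 11 in footprints and between 4 and 9 in translation efficiency, and in RNA 1 was higher each time. These fits take the spread of the remaining single library from the other groups. ND4L RNA, near 0, turned to 0.0038 with other size factors, 0.0053 without a filter and 0.0014 in DESeq2, and ranged from -0.15 to 0.14 with 1 library left out. Leaving out single libraries also turned the direction of changes that had no call. Footprint changes ranged from -0.67 to 0.199 for ATP8 and from -0.94 to 0.11 for ND3. Translation efficiency changes ranged from -0.43 to 0.19 for ND1, -0.79 to 0.18 for ND2, -0.65 to 0.087 for COX2, -0.29 to 0.76 for ND3, and -0.46 to 1.16 for ND6. With a replicate block 11 members were lower in RNA, 11 in footprints and 5 in translation efficiency, CYTB being the added RNA call. In that fit 4908, 4207 and 2174 of all 15577 tested transcripts were lower, against 4727, 4105 and 1865 in the fit used above. Same-numbered libraries deviated together by between -0.0046 and 0.13 (Pearson r over transcripts), so the numbers were not taken as pairs in the tests. The footprint-to-RNA ratios joined libraries of the same number by convention only. Without a filter on low counts 11, 11 and 7 members were lower, where 4902, 4180 and 1953 of all 21289 tested transcripts were. Footprint depth limits ATP8, ND3, ND4L and ND6.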
